A study of Homo sapiens with 42 samples.

Results

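TNFSF10 encodes TRAIL, a ligand of the tumour necrosis factor family that can start cell death in the cell that binds it. The measurements follow TNFSF10, the receptors and decoy receptors for TRAIL, and the first steps of death signalling in head and neck squamous cell carcinoma lines given an EGFR-blocking antibody. The set has 10 genes, which were chosen by their cetuximab minus control differences in these arrays, around the higher TNFSF10 level, so the cetuximab differences of its genes are given as a description without a test. Of these, 9 have a probe set listed under their symbol alone, among 19775 genes with such a probe set, and the remaining gene is not analysed here. Where a gene had several probe sets, the brightest by its mean over all 42 arrays stands for it.

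The 42 arrays (Affymetrix hgu133plus2.0) cover 14 conditions with 3 arrays each. The lines SCC25, SQ20B and SCC61, which are HPV-negative, and SCC047, SCC090 and 93VU147T, which carry HPV, each have 3 arrays of cells given cetuximab (CTX) at 100 nM for 24 h and 3 control arrays, described as untreated in the labels and as given PBS in the study's methods. SCC1 has cetuximab arrays only, and HaCaT, an immortalised keratinocyte line, has control arrays only. All are established lines grown in culture, each standing for 1 tumour or donor, and no source used here says whether the 3 arrays of a group are separate cultures, so the errors below measure only the spread between these arrays, which may be technical. All values are log2 levels as normalized by the study's authors with fRMA, and all differences are differences of log2 levels.

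Within groups of the 6 lines the lowest correlation of 2 arrays over all genes was 0.991. SCC090 control replicate 1 stood apart from its own group, with a mean correlation of 0.991. Differences of the TRAIL set in SCC090 that moved without it are given both ways where they are described. Those of other genes are given with it only. HaCaT replicates 1 and 2 carry nearly the same array name and may be 1 RNA, so HaCaT is given as 3 values without an error. All arrays of the 6 lines share the date set of their array names except SQ20B control replicate 3. All SCC1 and all HaCaT arrays lie in other date sets. Where they are set beside the 6 lines, line and date set cannot be told apart. The epithelial markers KRT5, DSG3, CDH1 and EPCAM were above 8 in all 14 conditions, while of 5 leukocyte markers PTPRC was at 4.30 or below, CD3E at 5.66 or below and NKG7 at 4.55 or below, and CD14 and LAPTM5 reached 7.87 and 7.51. KRT14 was above 8 in 8 of the 14 conditions.

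TRAIL binds a small group of receptors. TNFRSF10A (death receptor DR4) and TNFRSF10B (DR5) carry a cytoplasmic death domain that recruits the adaptor FADD and the initiator caspase CASP8, while TNFRSF10D and the secreted protein TNFRSF11B (osteoprotegerin) bind the ligand without passing on a death signal. CFLAR encodes c-FLIP, which competes with CASP8 in that complex. FAS is the receptor of the FAS ligand and uses the same adaptor, and TNFRSF21 (DR6) is a further member with a death domain. In epithelial cells these genes are usually transcribed without the cells dying, and the balance between the ligand, its receptors and CFLAR is commonly studied as a determinant of sensitivity. Messenger RNA says nothing of the amount of receptor at the cell surface or of caspase cleavage, neither of which was measured on these arrays.

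The promoter of TNFSF10 is shown because the results turn on the level of this transcript, and because transcription factors known to act on it were examined in the same arrays. The sequence is the 250 bases before the annotated start in RefSeq, at chr3:172523431-172523680 of GRCh38.p14 on the minus strand, written 5′ to 3′. Capitals mark the match to the core of an interferon-stimulated response element, the DNA motif of interferon regulatory factors such as IRF9.
TNFSF10: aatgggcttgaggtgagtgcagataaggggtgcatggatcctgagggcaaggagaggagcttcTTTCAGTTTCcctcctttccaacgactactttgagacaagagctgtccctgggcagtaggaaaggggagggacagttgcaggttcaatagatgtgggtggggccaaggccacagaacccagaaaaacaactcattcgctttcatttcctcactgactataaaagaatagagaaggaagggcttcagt
In all, 4 motifs were searched on both strands. The response element core was searched as GAAANNGAAA and matched at a single place, on the opposite strand, at bases -187 to -178 from the start. It occurs in 3.02% of 35116 promoters of the same length. The site of FOXO factors was searched as GTAAACA and is held by 2.98% of these promoters. The site of AP-1, the factor made of FOS and JUN proteins, was searched as TGACTCA and is held by 4.2% of them. The NF-kappaB site was searched as GGGNNTTTCC and is held by 1.73% of them. None of the last 3 motifs occurred in the letters above.

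Untreated TNFSF10 levels spanned 6.38 log2 units between the lines, the widest range of the 9 genes. SQ20B was lowest, with 4.82, 4.83 and 5.04 on its 3 control arrays, below the median of all values of the series (5.13). Whether this signal is above background was not measured, so no fold is given for SQ20B. SCC61 followed with 7.62, 7.94 and 7.95. These ranges did not overlap with each other or with any other line.

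The next lines in the order were 93VU147T and SCC25. 93VU147T had 8.81, 8.81 and 8.87, and SCC25 had 9.60, 9.78 and 9.97. At the top, SCC047 had 10.77, 10.77 and 11.40 and SCC090 had 11.27, 11.28 and 11.29. SCC047 and SCC090 overlapped, so their order is not settled beyond the spread of the arrays, while every other pair of neighbours was apart. Untreated HaCaT cells had 10.79, 10.88 and 10.93, within the range of SCC047.

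The untreated levels were tested in limma as each line against the mean of the other 5 lines, with adjustment over all genes. This contrast was not used to choose the genes, although it shares its control arrays with the cetuximab comparison. TNFSF10 was lower in SQ20B, at -4.85 log2 units (SE 0.11, adjusted p = 9.71e-27), and higher in SCC090 by 2.81 (adjusted p = 8.38e-21) and in SCC047 by 2.45 (adjusted p = 7.56e-19). SCC61 was lower, with a difference of -1.32 (adjusted p = 3.22e-12), and 93VU147T did not pass (-0.12, adjusted p = 0.379). SCC25 was higher by 1.02 (adjusted p = 1.6e-09), a call that was lost when SQ20B was left out of the reference (0.05). Without SQ20B the differences of SCC61 and 93VU147T were -2.38 and -1.14 (adjusted p = 1.76e-09), so that 93VU147T then passed. The other TNFSF10 probe sets placed SQ20B, SCC61, 93VU147T and SCC25 in the same order, and the dimmest of the 3 placed SCC047 above SCC090.

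With cetuximab, TNFSF10 was higher on all 3 treated arrays than on all 3 control arrays in 4 of the 6 lines. In SQ20B the treated arrays had 8.54, 8.78 and 8.81, against 4.82 to 5.04 without treatment. The difference was 3.81 log2 units (SE 0.14), and 3.78 without the control array of another date set.

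In SCC61 the treated arrays had 9.49, 9.62 and 9.78, a difference of 1.79 (SE 0.14, 3.46-fold). In SCC25 they had 10.93, 11.04 and 11.15, a difference of 1.26 (SE 0.14, 2.39-fold). In 93VU147T they had 9.14, 9.51 and 9.77, a difference of 0.64 (SE 0.14, 1.56-fold). In none of these lines did the treated and control arrays overlap.

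The HPV-positive lines SCC047 and SCC090, which had the most TNFSF10 before treatment, did not have more with cetuximab. SCC047 had 10.66, 10.74 and 11.03 on its treated arrays, which overlapped with its controls (-0.17, SE 0.14). SCC090 had 10.93, 10.95 and 11.05, all below its controls (-0.30, SE 0.14). The mean over the 6 lines was 1.17 (SE 0.06). It was 0.64 without SQ20B, so SQ20B moved the mean more than any other line.

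**Figure D1:**
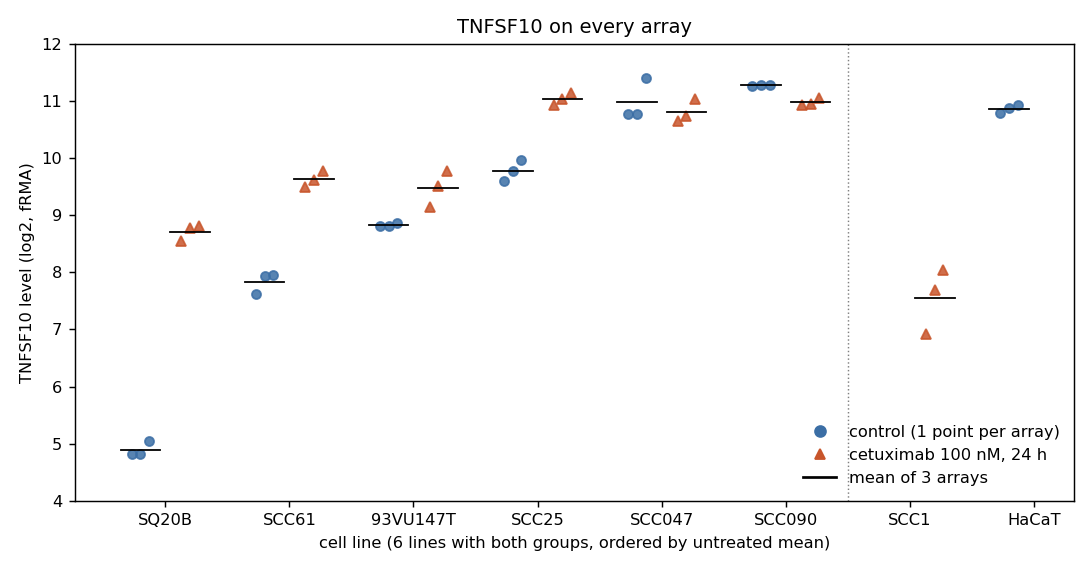
TNFSF10 level (log2, fRMA) on every array, with control arrays as circles, cetuximab arrays as triangles and bars for the mean of 3 arrays. The 6 lines with both groups are ordered by their untreated mean from 4.89 in SQ20B to 11.28 in SCC090, and treated arrays lie above the controls in SQ20B, SCC61, 93VU147T and SCC25.

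After treatment the lines lay closer together. The line means ran from 8.71 in SQ20B to 11.04 in SCC25, a span of 2.33 log2 units, against 6.38 before treatment. The highest treated SQ20B array and the lowest untreated array of 93VU147T were both at 8.81, so the order of these 2 groups is not settled. All treated SQ20B arrays lay below the untreated arrays of SCC25. Treated SCC1 cells had 6.93, 7.69 and 8.05, below the treated arrays of all 6 lines, and no untreated SCC1 array was analysed here. The untreated level and the difference share the control arrays, so no relation between them was computed. The labels give the cell survival with cetuximab at 7 days per line. It was 7.61% in SCC25, 28.65% in SQ20B, 35.57% in 93VU147T and 40.16% in SCC61, the lines with a higher TNFSF10, and 31.2% in SCC047 and 39.07% in SCC090, which lie within the same range.

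All 3 TNFSF10 probe sets had the same sign in each line. In SQ20B they gave differences of 3.26 to 3.89, in SCC61 of 1.72 to 1.90, in SCC25 of 1.09 to 1.26 and in 93VU147T of 0.45 to 0.69. In SCC047 they gave -0.37 to -0.17 and in SCC090 -0.40 to -0.21. The mean over the lines was 0.96 to 1.20. RNA quality moved with treatment in SQ20B: the difference between the 3′ and 5′ probe sets of ACTB was larger by 0.29 (SE 0.09) on the treated arrays, all 3 above the controls, and that of GAPDH by 0.07 (SE 0.03). The ACTB shift was 0.07 in SCC25 and 0.11 in SCC047 with no overlap, and overlapped in SCC61, SCC090 and 93VU147T. Its part in the TNFSF10 difference was not tested. Of 6 fibroblast markers, 2 passed as higher with cetuximab in SQ20B, 4 in SCC25 and 3 in SCC61. Of all genes 18.4%, 8.66% and 24.4% passed as higher there. In SCC047 and in 93VU147T 0 passed as higher and 2 as lower, beside 19% and 18.8% of all genes lower. In SCC090 0 passed either way. The mean level of the list was 4.76 without and 5.19 with treatment in SQ20B, 6.48 and 6.95 in SCC25, and 5.69 and 5.85 in SCC61. COL1A1 was at 5.46 without and 7.30 with treatment in SQ20B, and LUM at 7.54 and 9.34 in SCC25, while PDGFRB was between 5.13 and 5.48 in all conditions. The part of these markers in the TNFSF10 difference was not tested.

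The death receptors TNFRSF10A and TNFRSF10B had lower means with cetuximab in most lines. Their untreated levels were spread over 1.17 and 1.72 log2 units. Untreated TNFRSF10A ran from 6.36 (SD 0.14) in SCC25 to 7.53 (SD 0.16) in 93VU147T, and each neighbour in the order SCC25, SCC090, SCC047, SCC61 and SQ20B overlapped with the next. 93VU147T stood above the mean of the other lines by 0.90 (SE 0.10, adjusted p = 5.1e-09) and SCC25 below it, at -0.51 (adjusted p = 9.86e-05). The other 4 lines did not pass for this receptor, though SCC090 did without its control replicate 1 (-0.36, adjusted p = 0.00486).

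With cetuximab, TNFRSF10A was at 5.67, 5.89 and 5.95 in SCC25, against 6.20, 6.41 and 6.48 in its controls (-0.53, SE 0.13). In SQ20B it was at 6.12, 6.28 and 6.53, against 6.77, 6.80 and 6.95 (-0.53). In SCC090 it was at 6.02, 6.06 and 6.20, against 6.44, 6.47 and 7.01 (-0.55, and -0.36 without control replicate 1, the highest of the 3). The treated arrays lay below the controls in these 3 lines and in 93VU147T (-0.29), while SCC61 overlapped (-0.22).

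SCC047 went the other way. Its treated arrays had 7.09, 7.24 and 7.42, all above its controls at 6.42, 6.74 and 6.83 (0.59, SE 0.13). All 3 TNFRSF10A probe sets shared this sign in SCC047 (0.38 to 0.59) and the opposite sign in the other 5 lines. The mean over the 6 lines was -0.25 (SE 0.05).

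Untreated TNFRSF10B was lowest in SCC090 (7.71, 7.73 and 8.10) and highest in 93VU147T (9.45, 9.51 and 9.75), which overlapped with SCC047 (9.30, 9.37 and 9.52). The other neighbours did not overlap. The receptor stood below the mean of the other lines in SCC090, at -1.19 (SE 0.07, adjusted p = 1.09e-15, and -1.32 without control replicate 1), and above it in 93VU147T by 0.87 (adjusted p = 3.78e-12) and SCC047 by 0.66 (adjusted p = 1.81e-09). SCC090 thus had the least of this receptor and, with SCC047, the most of the ligand.

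With cetuximab, TNFRSF10B in 93VU147T was at 8.77, 9.04 and 9.05, all below its controls (-0.62, SE 0.09). In SQ20B it was at 8.12, 8.12 and 8.31, against 8.59, 8.60 and 8.69 (-0.44). The differences in the other lines were between -0.24 and -0.05, and overlapped with the controls in SCC25 and SCC047. That of SCC090 (-0.24) was -0.11 without control replicate 1. The mean was -0.28 (SE 0.04). Of its 4 probe sets, 3 were lower in the mean (down to -0.30) and 1 was at 0.02, and in SQ20B they ran from -0.92 to -0.02.

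Of the receptors that bind TRAIL without a death signal, TNFRSF10D was low, between 5.15 and 7.02 on the untreated arrays of the 6 lines. It was highest in SCC61, above the other lines by 1.11 (SE 0.11, adjusted p = 3.86e-10), and in SCC090, by 0.79 (adjusted p = 3.24e-07, and 0.59 without its control replicate 1). SQ20B was lower, at -0.79 (adjusted p = 4.29e-07). Untreated HaCaT cells had 4.46, 4.60 and 4.64, below every array of the 6 lines. With cetuximab the differences ran from -0.31 in SCC61 to -0.02 in SCC25, and the mean was -0.20 (SE 0.06). In SCC090 the difference of -0.29 was -0.09 without control replicate 1.

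TNFRSF11B was measured well above its level elsewhere in SCC047 alone among the 6 lines. Its untreated arrays had 6.97, 6.98 and 7.16, while the other 5 lines had 3.80 to 4.37 with overlapping neighbours, and HaCaT had 4.54, 4.57 and 4.72. SCC047 stood above the mean of the other lines by 3.06 (SE 0.08, adjusted p = 1.3e-24). Without SCC047 in the reference, the calls of SCC25, SQ20B and 93VU147T as lower were lost and those of SCC61 and SCC090 turned. With cetuximab SCC047 had 6.51, 6.65 and 6.90, all below its controls (-0.35, SE 0.11). The mean difference over the lines was -0.15 (SE 0.04) and 0.02 by the other probe set, so its sign rests on the choice of probe set.

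**Figure D2:**
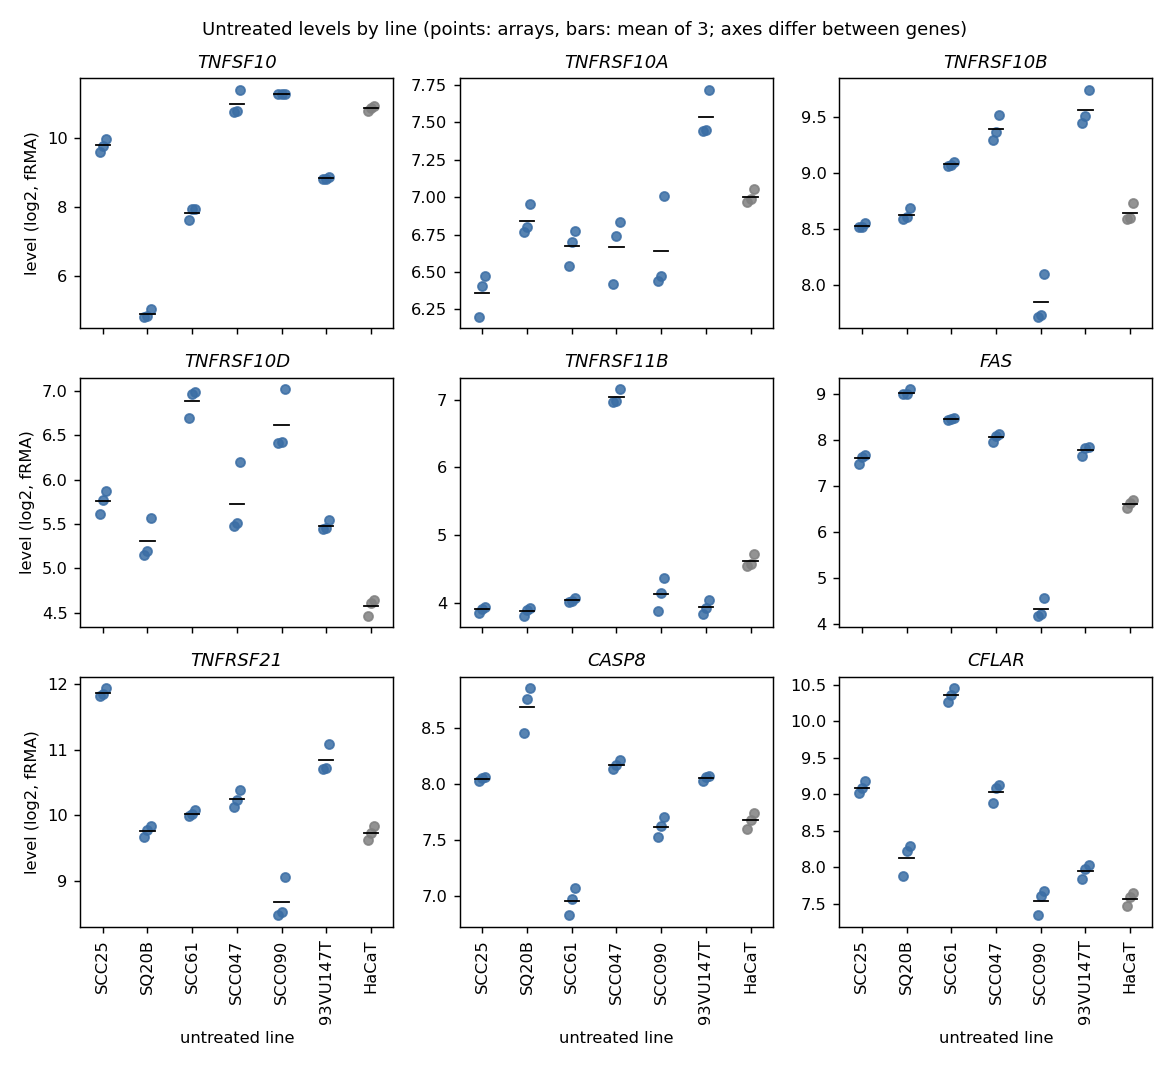
Levels (log2, fRMA) of the 9 genes on untreated arrays of 6 lines and of HaCaT cells (grey), with points for arrays and bars for the mean of 3. FAS is near 4.3 in SCC090 and above 7.4 in the other 5 lines, TNFRSF11B is near 7.0 in SCC047 alone among the 6 lines, and TNFSF10 is near 4.9 in SQ20B.

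FAS had the second widest spread of untreated levels, 4.70 log2 units. SCC090 had 4.17, 4.22 and 4.56, below the median of all values, and SQ20B had 8.98, 8.98 and 9.10. The other 4 lines lay between 7.48 and 8.46, with an overlap between SCC25 and 93VU147T. SCC090 stood below the mean of the other lines, at -3.86 (SE 0.08, adjusted p = 1.87e-28, and -3.78 without control replicate 1), and SQ20B above it, by 1.79 (adjusted p = 3.17e-19). The 4 brightest FAS probe sets all put SCC090 last and SQ20B first. SQ20B thus had the least TNFSF10 and the most FAS of the 6 lines, while SCC090 had the least FAS and was, with SCC047, at the top for TNFSF10. HaCaT cells had 6.52, 6.62 and 6.69, between SCC090 and the other lines. Leaving SCC090 out of the reference turned the differences of SCC047 (0.62 to -0.16) and 93VU147T (0.28 to -0.51).

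The FAS differences with treatment were small. They were between -0.27 in SCC25, where all treated arrays lay below the controls, and 0.12 in SCC047, and the treated and control arrays overlapped in the 5 lines other than SCC25. The mean was -0.03 (SE 0.04). FASLG, the gene of its ligand and a gene of the tested lists below, did not pass limma in any line, with a mean difference of 0.08 (SE 0.05).

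TNFRSF21 was the brightest in SCC25 (11.83, 11.86 and 11.94) and the dimmest in SCC090 (8.47, 8.52 and 9.06). No 2 neighbouring lines overlapped. SCC25 stood above the other lines by 1.96 (SE 0.08, adjusted p = 2.81e-19), and SCC090 below, at -1.87 (adjusted p = 3.6e-19, and -2.06 without control replicate 1). With cetuximab, SCC090 had 7.97, 7.99 and 8.02, all below its controls (-0.69, SE 0.11, and -0.50 without control replicate 1). 93VU147T had 10.32, 10.39 and 10.47, against 10.71, 10.72 and 11.10 (-0.45). SCC61 had 10.29, 10.35 and 10.35, all above its controls at 9.98, 10.02 and 10.08 (0.30). Both probe sets had these signs in the 3 lines. The mean was -0.11 (SE 0.04), and was -0.04 without 93VU147T and 0.01 without SCC090. Its call as lower was kept in only 13 of the 36 fits that left out 1 array.

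CASP8, the initiator caspase at the TRAIL and FAS receptors, was apart from its controls by a large amount in a single line. Untreated SCC61 cells had the least, 6.83, 6.97 and 7.07, and stood below the mean of the other lines, at -1.16 (SE 0.07, adjusted p = 2.04e-16). With cetuximab SCC61 had 8.49, 8.53 and 8.71, a difference of 1.62 (SE 0.08, 3.08-fold), which brought it to the untreated level of SQ20B, the highest line (8.45, 8.76 and 8.85). In the other 5 lines the differences were between -0.17 and 0.03. The mean of 0.22 (SE 0.03) thus rests on SCC61 and was -0.07 without it. The second brightest CASP8 probe set gave 1.37 in SCC61, and -0.70 in SQ20B with no overlap, where the brightest gave -0.02. The third, whose mean level was near 5, gave -0.13 in SCC61.

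CFLAR was highest in SCC61, with 10.26, 10.36 and 10.45 on the untreated arrays. It stood above the mean of the other lines there by 2.01 (SE 0.08, adjusted p = 1.09e-20) and below it in SCC090, at -1.37 (SE 0.08, adjusted p = 1.27e-16, and -1.27 without control replicate 1), and in 93VU147T, at -0.88 (adjusted p = 9.87e-12). SCC61 thus had the most CFLAR and the least CASP8 before treatment. With cetuximab the brightest probe set was higher in SQ20B (8.53, 8.57 and 8.64, against 7.89, 8.22 and 8.29, a difference of 0.45, SE 0.10). It was lower in SCC047 with 1 treated array within the range of the controls (-0.34), and in SCC61 with no overlap (-0.22). The mean over the 6 lines was -0.01 (SE 0.04).

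The 14 CFLAR probe sets did not share a sign. In SCC61, 8 of them were higher on all treated arrays, by up to 0.81, while the brightest was lower on all of them. In SCC25, 8 were higher and 1 was lower without overlap, and in SQ20B 9 were higher and 1 was lower, the largest difference being 1.38. In the mean 10 were above 0 and 4 below, between -0.09 and 0.41. CFLAR is transcribed into several forms, and which of them each probe set reads was not examined.

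**Figure D3:**
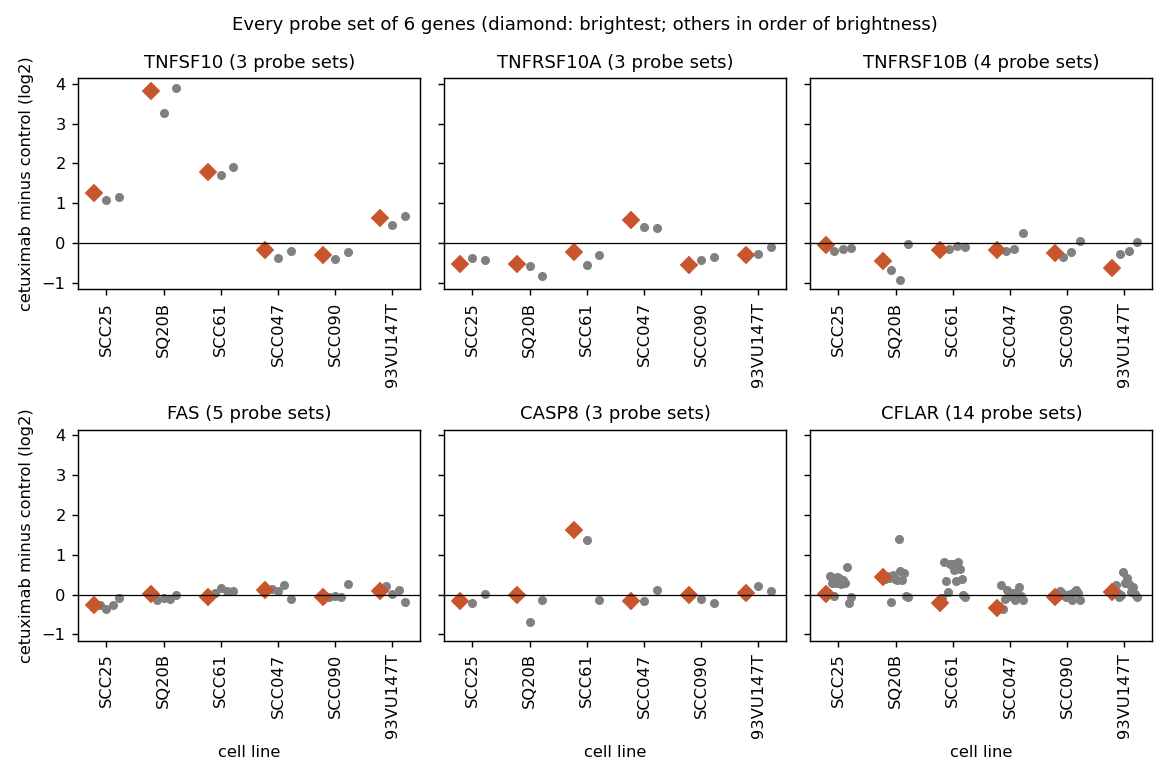
Difference between cetuximab and control (log2) by line for every probe set of 6 genes, the brightest as a diamond and the others as grey points in order of brightness. The 3 TNFSF10 probe sets lie together in each line, while the 14 CFLAR probe sets lie on both sides of 0 in all 6 lines.

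Counted over the 9 genes, the calls within lines were few, and the choice of the genes used this contrast, so the counts are printed beside those of all genes and nothing is read from them. In SCC25, 1 gene was called higher (TNFSF10) and 1 lower (TNFRSF10A), where 8.66% of all genes were called higher and 7.3% lower. In SQ20B, 2 were higher (TNFSF10 and CFLAR) and 2 lower (TNFRSF10A and TNFRSF10B), beside 18.4% and 14.9% of all genes. In SCC61, 3 were higher (TNFSF10, CASP8 and TNFRSF21) and 0 lower, beside 24.4% and 19.8%. In SCC047, 1 was higher (TNFRSF10A) and 2 lower (TNFRSF11B and CFLAR), beside 17.3% and 19%. In SCC090, 0 were higher and 2 lower (TNFRSF10A and TNFRSF21), beside 0.516% and 0.885%. Of the 36 fits that left out 1 array, 33 kept this call of TNFRSF10A and 36 that of TNFRSF21. Without control replicate 1 the differences were -0.36 and -0.50. In 93VU147T, 1 was higher (TNFSF10) and 2 lower (TNFRSF10B and TNFRSF21), beside 15.8% and 18.8%. In the mean of the 6 lines, 2 were higher (TNFSF10 and CASP8), 5 lower and 2 not called, beside 22.8% and 23.1%, with a median difference of -0.11 over the 9 genes and -0.02 over all genes.

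**Figure D4:**
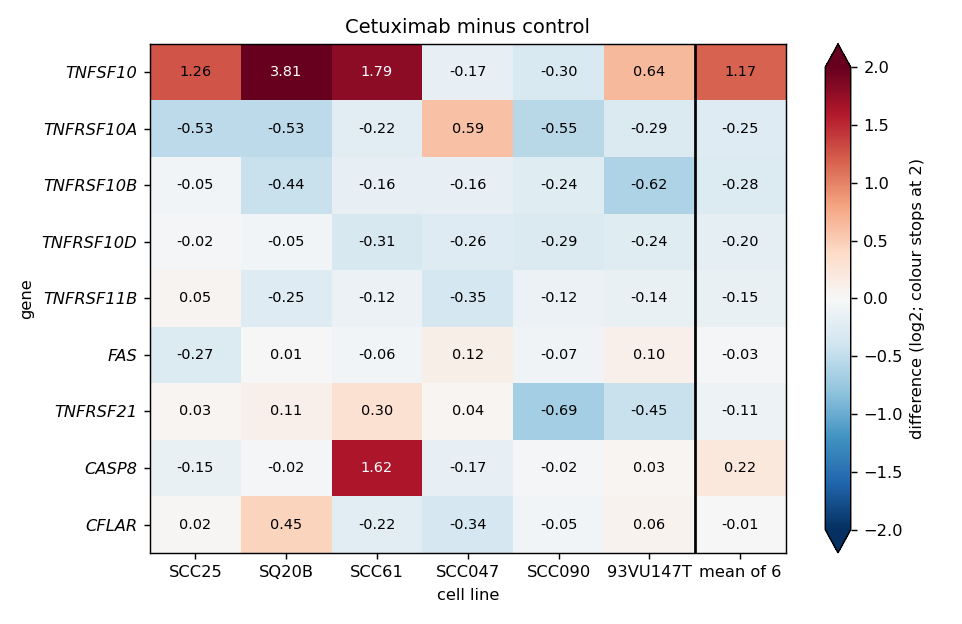
Cetuximab minus control (log2) for each of the 9 genes in each line and in the mean of 6 lines, written in every cell and coloured up to 2 in either direction. The largest values are those of TNFSF10 in SQ20B (3.81) and SCC61 (1.79) and of CASP8 in SCC61 (1.62), and TNFRSF10A is above 0 in SCC047 alone.

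Between untreated lines, 45 of 54 differences of a gene in a line from the mean of the other 5 lines passed limma. Such differences were common over all genes, at 47.9% in SCC25, 51.8% in SQ20B, 54.3% in SCC61, 52.5% in SCC047, 64.7% in SCC090 and 53.1% in 93VU147T. The calls per line were 6 of 9 in SCC25, 8 in SQ20B, 8 in SCC61, 7 in SCC047, 8 in SCC090 and 8 in 93VU147T. Each line had its own combination, and by the brightest probe set the lowest of the 6 lines was SCC090 for TNFRSF10B, FAS, TNFRSF21 and CFLAR. For CFLAR the lowest line depended on the probe set. The second brightest also put SCC090 last, while the third brightest put 93VU147T last and the ninth SQ20B. The dimmest TNFRSF10B probe set put SCC090 highest, at 4.67.

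A wider set of 51 genes around the same pathway was examined with tests, in 8 lists of ligands, receptors, adaptors, caspases, inhibitors, glycosylation enzymes, NF-kappaB genes and factors known to act on the TNFSF10 promoter. In the mean of the 6 lines 15 rose (22.8% of all genes did), 20 fell (23.1% of all genes) and 16 did not pass, with a median of -0.02, equal to that of all genes to this precision. In SCC25 12 rose and 1 fell, beside 8.66% and 7.3% of all genes. In SQ20B 14 rose and 10 fell, beside 18.4% and 14.9%, and in SCC61 16 rose and 12 fell, beside 24.4% and 19.8%. In SCC047 8 rose and 19 fell, beside 17.3% and 19%. In SCC090 0 rose and 2 fell, beside 0.516% and 0.885%, and in 93VU147T 9 rose and 21 fell, beside 15.8% and 18.8%.

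Of the factors known to act on the TNFSF10 promoter, 3 of 7 measured rose in the mean and 0 fell, beside 22.8% and 23.1% of all genes. The lists are short, so nothing is read from the counts by list here and below. IRF9, a subunit of the interferon-activated complex, rose by 0.39 (SE 0.05, adjusted p = 1.05e-07). IRF7, which drives interferon genes, rose by 0.42 (SE 0.06, adjusted p = 1.41e-06). FOXO1, a forkhead factor held out of the nucleus by growth factor signalling, rose by 0.28 (SE 0.04).

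Within lines, 5 of the 7 rose in SCC25 (8.66% of all genes did) and 5 in SQ20B (18.4% of all genes). In either line 0 fell, beside 7.3% and 14.9% of all genes. The median differences of the list there were 0.42 and 0.53, while those of all genes were 9.15e-05 and -0.03. The members were not the same in both lines. IRF1, IRF9 and FOXO1 rose in both, IRF7 (0.61) and FOXO4 (0.51) passed in SCC25, and FOXO3 (0.53) and SP1 (0.36) in SQ20B, where IRF7 was at 0.06. IRF9 rose by 1.06 in SQ20B (SE 0.12, adjusted p = 2.14e-08), the line with the largest TNFSF10 difference, and by 0.84 in SCC61 and 0.37 in SCC25. In SCC61, IRF7 rose by 1.14 and FOXO3 fell by 1.02. IRF7 also rose in SCC047 (0.94), where TNFSF10 was not higher. Of the 7 factors, 2 rose and 2 fell in SCC61, beside 24.4% and 19.8% of all genes, with a median of 0.08. In 93VU147T, where TNFSF10 was also higher, 2 rose and 1 fell, beside 15.8% and 18.8%, with a median of -0.10. In SCC047 1 rose and 1 fell, beside 17.3% and 19%. In SCC090 0 passed either way, beside 0.516% and 0.885%. The part of these factors in the TNFSF10 difference was not tested.

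Of the other TNF family ligands, 0 of 7 rose in the mean and 4 fell, beside 22.8% and 23.1% of all genes. LTB, a subunit of the lymphotoxin heterotrimer, fell by 0.40 (SE 0.04, adjusted p = 1.96e-10) and by 1.48 in SCC047. TNFSF15 fell by 0.34 (adjusted p = 1.4e-07) and by 1.14 in 93VU147T, while it rose by 0.62 in SCC047, and its second brightest probe set gave 0.16 in the mean. TNF, the founding ligand of the family, fell by 0.18. Of the other death and decoy receptors, 0 of 5 rose and 4 fell, beside the same shares of all genes. NGFR, the low-affinity neurotrophin receptor, fell by 0.68 (SE 0.04, adjusted p = 1.36e-14), with -2.20 in SCC61, -1.40 in SCC047 and -0.76 in 93VU147T, and rose by 0.33 in SQ20B. The remaining decoy receptor for TRAIL, TNFRSF10C, fell by 0.15.

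Of the adaptors and kinases of the death complexes, 3 of 6 rose and 1 fell in the mean, beside 22.8% and 23.1% of all genes. FADD, the adaptor between the TRAIL receptors and CASP8, rose by 1.39 in SCC61 (SE 0.08) and fell in SQ20B, at -0.47, with 0.11 in the mean. In SCC61 it rose together with the higher CASP8 level described above. MLKL, the effector of necroptosis, rose by 0.31 in the mean (adjusted p = 3.55e-08), with 1.25 in SCC047 and 1.09 in SCC61, while it fell in SQ20B (-0.50). TRADD, the adaptor of the TNF receptor, rose by 0.86 in SCC61, 0.40 in SQ20B and 0.26 in SCC25 and fell in SCC047 (-0.31) and 93VU147T (-0.30).

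Of the executioner caspases and the mitochondrial arm, 4 of 7 rose and 3 fell in the mean, beside 22.8% and 23.1% of all genes. CASP6, an executioner caspase, rose by 0.48 (SE 0.04, adjusted p = 2.37e-11) and by 1.41 in SCC61. APAF1, the scaffold of the apoptosome, rose by 0.37 (SE 0.06, adjusted p = 1.82e-05), although its second brightest probe set gave -0.09. BID, which links CASP8 to the mitochondria, fell by 0.20, and 93VU147T (-0.91) was the only line where it passed. DIABLO and HTRA2, mitochondrial proteins that release caspases from their inhibitors, fell by 0.19 and by 0.20.

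Of the 5 inhibitors of death signalling, 2 rose and 2 fell in the mean, beside 22.8% and 23.1% of all genes. XIAP, which binds and blocks caspases, rose by 0.24 and BIRC2 (cIAP1), a ubiquitin ligase at TNF receptors, by 0.19. TNFAIP3 (A20), a ubiquitin editor that restrains NF-kappaB, fell by 0.48 (SE 0.07, adjusted p = 6.24e-07), with -1.64 in 93VU147T and -0.79 in both SCC047 and SQ20B, and rose by 0.44 in SCC61. Of the glycosylation enzymes that modify death receptors, 0 of 4 rose and 2 fell, beside the same shares of all genes. GALNT14 fell by 0.40 (SE 0.05, adjusted p = 1.1e-07).

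Of the 10 genes of the NF-kappaB arm, 3 rose and 4 fell in the mean, beside 22.8% and 23.1% of all genes. IKBKB, a kinase that releases NF-kappaB, rose by 0.38 (adjusted p = 3.86e-08) and by 1.44 in SCC61. RELB, a subunit of the noncanonical arm, fell by 0.41 (SE 0.04, adjusted p = 2.07e-09) and by 1.14 in 93VU147T. In that line 6 of the 10 fell and 0 rose, beside 18.8% and 15.8% of all genes, with a median of -0.39 against -0.04 for all genes. NFKB2 fell there (-0.94), in SCC047 (-0.64) and in SCC090 (-0.61) and rose in SQ20B (0.42). In SQ20B 4 of the 10 rose and 1 fell, beside 18.4% and 14.9% of all genes. SCC61 had the same counts, beside 24.4% and 19.8%. In SCC047 1 rose and 5 fell, beside 17.3% and 19%. In SCC25 1 rose and 0 fell, beside 8.66% and 7.3%. In SCC090 0 rose and 2 fell, beside 0.516% and 0.885%.

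**Figure D5:**
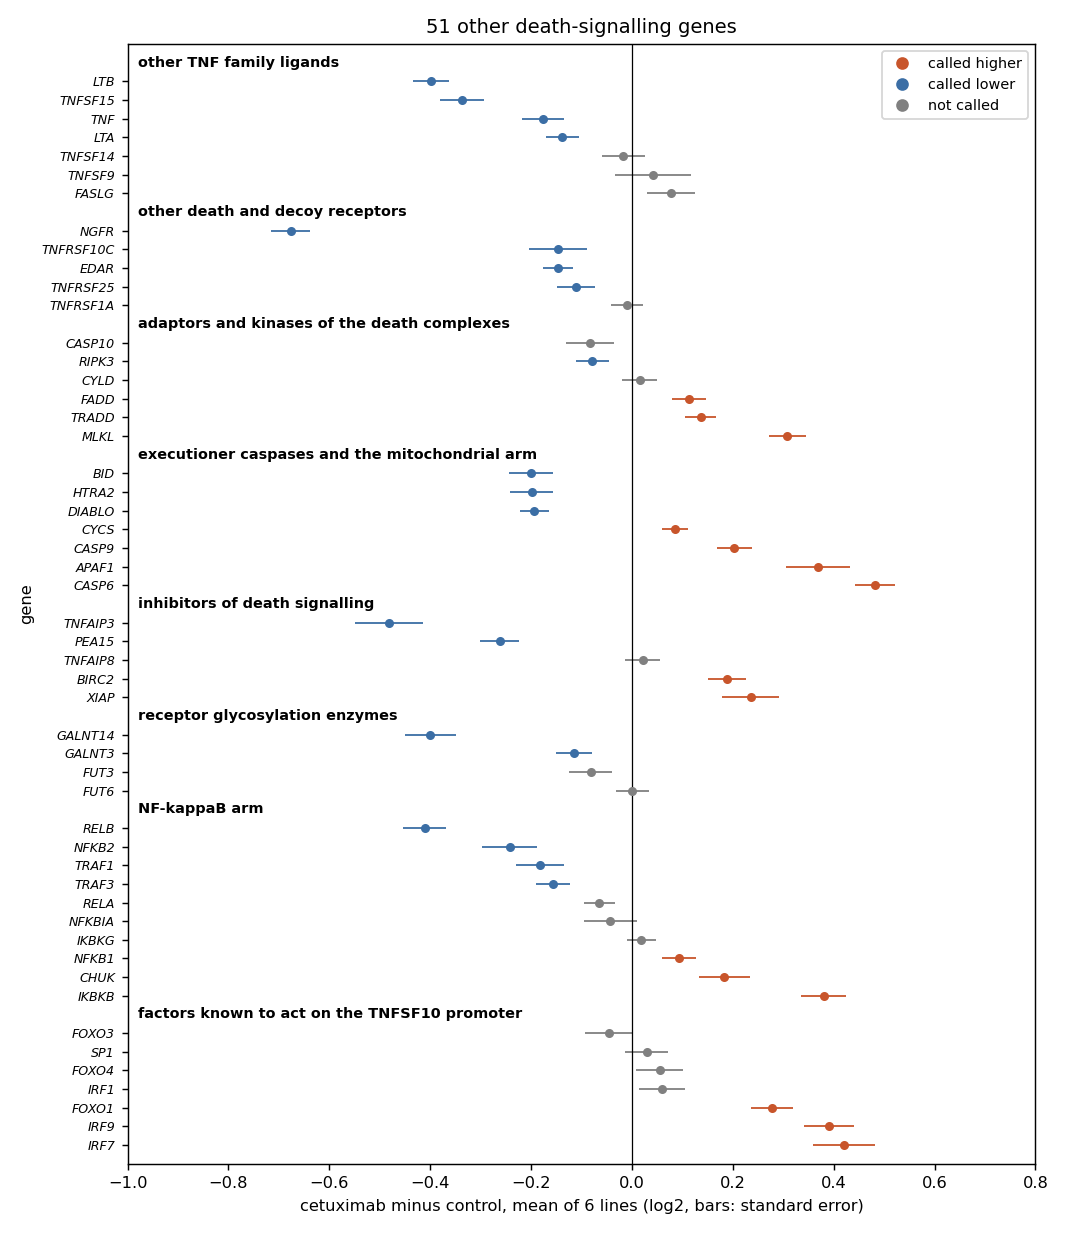
Mean cetuximab difference over 6 lines (log2, bars for the standard error) of 51 other death-signalling genes in 8 lists, coloured by the limma call. NGFR is lowest at -0.68 and CASP6 highest at 0.48, and genes on both sides of 0 are called in 4 of the lists.

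The genes whose levels followed TNFSF10 most closely over the 14 condition means, among 10974 genes that span at least 1 log2 unit, were FXYD3 (Pearson r = 0.96), WNT9A (0.90), MARCKS (0.90), S100A6 (0.89), SLC38A10 (0.88), MATN2 (0.88), KLF5 (0.88) and TP53INP1 (0.88). These are descriptions over 14 conditions of 8 lines, whose treated and untreated samples share a line. In SQ20B the cetuximab differences of these genes were all above 0, from 0.32 for KLF5 to 2.42 for MATN2. Both SQ20B conditions entered the correlation that picked these genes, so nothing is read from this. Among the other 8 genes of the set, FAS was the farthest from 0, at -0.62, and TNFRSF11B had 0.41, while the remaining 6 lay between -0.26 and 0.11.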

How the data were processed

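RNA was measured on 42 Affymetrix hgu133plus2.0 arrays. The files deposited by the authors hold log2 levels of probe sets, made with fRMA (background correction, normalization to a frozen reference, robust summary). The batch correction pSVA is named too, and whether it entered these values is not given in the sources used here. Of 54675 probe sets, 41091 carry 1 gene symbol, 1801 several and 11721 none in the annotation used, and 62 are array controls. Each of 19775 genes was represented by its brightest probe set over all arrays. Some items are not reported here.

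The 36 arrays of 6 lines were fitted with a mean for each of 12 groups in limma 3.58.1 (R 4.3.3, 24 residual and 6.86 prior degrees of freedom), with Benjamini-Hochberg adjustment over all genes and a threshold of 0.05. Contrasts were cetuximab minus control by line and in the mean of lines, and each untreated line against the mean of the other 5. SCC1 and HaCaT arrays lack a partner group and were not tested. The pipeline was tested on simulated data. The number of arrays limits the precision.

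The genes and lists were chosen with earlier results of these data known, so nothing is supported by their choice. Of 60 listed other genes, 51 had a probe set. Genes named from them are the 6 largest rises and falls that passed in the mean, those past 1 log2 unit in a line, and a few chosen after their values were seen. Marker lists covered squamous epithelium, leukocytes, fibroblasts and endothelium. Over the 6 lines 3 of 5 epithelial markers were higher in the mean, 2 of 5 leukocyte and 1 of 5 endothelial markers lower, and of 6 fibroblast markers 2 were higher and 1 lower. Of all genes 22.8% were called higher and 23.1% lower. Alternatives were other probe set choices, a filter on dim genes, quantile normalization, centred medians, a replicate block, all arrays, the date set of the array name, a variance trend, and each array and line left out in turn.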

Additional observations from a re-analysis of the deposited data

Results flagged for a closer look

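The 9 genes of the TRAIL set were checked, with the genes of the other lists that were named for the size of their differences. Further genes named above, such as TRADD and NFKB2, were not checked. Those given here had all treated arrays above all controls in at least 1 line and all below in at least 1 other. How common this is over all genes was not counted, so nothing is read from it. The difference between the lines was not tested for any of them, and each is given as the highest minus the lowest such line. Among the genes of the TRAIL set, TNFSF10 differed by 4.12 log2 units (3.81 in SQ20B and -0.30 in SCC090), CASP8 by 1.79 (1.62 in SCC61 and -0.17 in SCC047), TNFRSF10A by 1.14 (0.59 in SCC047 and -0.55 in SCC090, or -0.36 without SCC090 control replicate 1), TNFRSF21 by 0.99 (0.30 in SCC61 and -0.69 in SCC090, or -0.50 without that array) and CFLAR by 0.67 (0.45 in SQ20B and -0.22 in SCC61). The CFLAR values are those of its brightest probe set. In SCC61, 10 of its 14 probe sets were above 0, 8 of them without overlap, so the opposite direction rests on the probe set. Among the other genes, NGFR differed by 2.53 (0.33 in SQ20B and -2.20 in SCC61), TNFAIP3 by 2.08 (0.44 in SCC61 and -1.64 in 93VU147T) and FADD by 1.86 (1.39 in SCC61 and -0.47 in SQ20B). TNFSF15 differed by 1.76 (0.62 in SCC047 and -1.14 in 93VU147T), MLKL by 1.74 (1.25 in SCC047 and -0.50 in SQ20B), CASP6 by 1.67 (1.41 in SCC61 and -0.25 in SCC090) and FOXO3 by 1.55 (0.53 in SQ20B and -1.02 in SCC61).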

How the results depend on the processing

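The main values were 2 genes of the TRAIL set called higher and 5 lower in the mean of 6 lines, a TNFSF10 mean of 1.17, 15 other genes that rose and 20 that fell, and 45 untreated differences. Leaving out each of 36 arrays gave 2 to 2 and 4 to 5 genes of the set, a TNFSF10 mean of 1.15 to 1.21, 15 to 15 and 18 to 21 other genes, and 43 to 46 untreated differences. The TNFSF10 mean was 0.96 with the second brightest probe set or one chosen by a ratio of deviations, 0.64 without SQ20B, 1.44 without SCC047 and 1.47 without SCC090. The set had 1 gene called higher with the second brightest probe set and 1 without SCC61, and 13 other genes fell without 93VU147T. The untreated differences called were not recounted with a line left out, since each contrast then changes.

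Directions turned as follows, and the cause was not tested. With the second brightest probe set the mean of TNFRSF11B was 0.0152 (also 0.0152 by the ratio of deviations), of APAF1 -0.0909 and of TNFSF15 0.16, and the untreated difference of TNFRSF10D in SCC047 was 0.0258 and of CASP8 in 93VU147T -0.13. Without SCC61 the CASP8 mean was -0.0655 and its untreated 93VU147T difference -0.0788. Without SCC090 the TNFRSF21 mean was 0.00666 and the untreated FAS differences were -0.16 in SCC047 and -0.51 in 93VU147T. Without SCC047 untreated TNFRSF11B was 0.0763 in SCC61 and 0.19 in SCC090, and without SCC25 untreated TNFRSF21 in SCC61 was 0.14. A further 33 values of single genes under other settings and 50 with an array left out lost their call with the same sign. The filter on dim genes kept 13087 genes and 8 of the set.

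Replicate numbers are shared between groups, and no source used here says whether they pair the arrays. The main fit did not pair them. The deviations of same-numbered arrays correlated at -0.15 to 0.32 over 18 pairs, with 7 above 0.1, and 9 correlated best with their own number. With the replicate block the TNFSF10 mean was 1.17, with 2 genes of the set called higher and 5 lower, 15 and 20 other genes, and 45 untreated differences.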
